A study of Homo sapiens with 2 samples.

Results

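The genes described here are 9 that are read in prostate cancer as signs of neuroendocrine differentiation or of lineage plasticity, the shift of a luminal tumour cell towards another identity: CHGA, CHGB, SYP, ENO2, NCAM1, INSM1, SOX2, MAP2 and REST. They were fixed by symbol, and all 9 were found among the 49672 gene names of the deposited tables. Both libraries came from C4-2B, an androgen-independent prostate cancer line with luminal features that grows in bone. One was treated with DMSO as vehicle and the other with 2.5 µM MA4-022-1, which the labels describe as inhibiting BET bromodomain proteins and kinases, for a time that the sources used here do not state. Each group held 1 library of a single line, so differences between the libraries come without any measure of the spread between cultures, and the intervals given stand for counting error alone.

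Neuroendocrine cells store peptides in dense-core granules built around granins such as CHGA and CHGB, and carry small vesicles marked by synaptophysin (SYP). In most other cells these genes are held down by REST, a zinc finger repressor that binds RE1 elements and recruits histone deacetylases and demethylases through its corepressors. Prostate tumours that escape hormone therapy can switch such genes on, and loss of RB1 together with gain of SOX2 or EZH2 is known to favour that switch. BET proteins read acetylated histones at enhancers and promoters.

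MAP2, the microtubule protein of dendrites, was 6.69 times as high with MA4-022-1 as with vehicle, and SYP was 2.65 times as high at a much lower level. CHGA, NCAM1, INSM1 and SOX2 rested on an estimated 12.3 reads or fewer in each library. REST itself, CHGB and the row that holds ENO2 lay within 2-fold. So did SYP, at 1.90-fold, once 1 RPKM was added to both values, the scale on which genes are counted below. Among relatives of these genes the granin VGF and the vesicle protein SYT4 were more than 10-fold lower in RPKM with the compound, so the neuroendocrine genes that C4-2B cells transcribe did not go one way.

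RefSeq promoter windows (build GRCh38.p14) were at hand for 6 of the 9 genes, 9 windows in all, and the stretches below show how the windows of MAP2, the gene with the largest difference, compare with those of SYP, REST and CHGA. Each is the part of the 250 bases before a gene's start that holds no annotated exon of the gene, 5′ to 3′, with any GC box (GGGCGG) or cyclic AMP response element (CRE, TGACGTCA) in capitals. For CHGA only the 30 bases around its CRE are given.
MAP2, start 1, chr2:209579082-209579314, plus strand: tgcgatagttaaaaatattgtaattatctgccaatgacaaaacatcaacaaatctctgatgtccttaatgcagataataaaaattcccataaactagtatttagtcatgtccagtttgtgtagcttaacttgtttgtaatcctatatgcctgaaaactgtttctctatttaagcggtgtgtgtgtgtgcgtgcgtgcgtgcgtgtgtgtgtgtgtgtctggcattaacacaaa
MAP2, start 3, chr2:209661246-209661464, plus strand: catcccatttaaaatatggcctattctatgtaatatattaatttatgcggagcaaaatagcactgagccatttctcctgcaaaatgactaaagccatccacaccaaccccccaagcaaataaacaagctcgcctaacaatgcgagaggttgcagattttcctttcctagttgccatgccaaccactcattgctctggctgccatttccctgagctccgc
SYP, chrX:49200260-49200443, minus strand: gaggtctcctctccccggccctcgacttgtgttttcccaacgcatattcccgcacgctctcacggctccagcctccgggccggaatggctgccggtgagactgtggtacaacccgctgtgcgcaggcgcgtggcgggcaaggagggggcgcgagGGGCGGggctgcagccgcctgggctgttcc
REST, start 1, chr4:56907650-56907875, plus strand: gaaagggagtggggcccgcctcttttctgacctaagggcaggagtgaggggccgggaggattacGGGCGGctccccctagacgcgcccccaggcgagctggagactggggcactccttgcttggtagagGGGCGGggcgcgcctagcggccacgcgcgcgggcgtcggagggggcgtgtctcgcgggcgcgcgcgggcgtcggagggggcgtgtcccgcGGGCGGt
CHGA, CRE, chr14:92923085-92923114, plus strand: ggcggcaccgcTGACGTCAtttccggggtc

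MAP2 has 3 starts in that table, and its windows of 250 bases held 37.6%, 51.2% and 44.4% G and C. All 3 lay below the median of 58.0% over 35116 such windows, whereas the other 6 windows of these genes held 68.8% to 78.4%. No MAP2 window held a GC box, which 42.6% of all windows and all 6 other windows of these genes had. On either strand, the CRE was found in 1 of the 9 windows, that of CHGA, starting 54 bases before the gene's start, and in 1.65% of all windows. The E-box CACGTG, which MYC binds, was in none of the 9 and in 6.34% of all. The left arm of the RE1 element, TTCAGCACC, was in none of the 9 and in 0.288% of all windows. The whole element, which is that arm, any 2 bases and then GGACAG, was in 5 windows of the 35116. SYN1 and GRIA2, both known REST targets, had 2 of those 5 windows. RE1 elements often lie outside such short windows, so these letters say nothing about where REST was bound.

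Levels are given as the deposited RPKM, reads per kilobase of transcript scaled to the size of the library, and can be set beside each other between genes. From the step between low values the depth was estimated as 27137711 reads with vehicle and 19915033 reads with MA4-022-1, which makes 1 read on a transcript of 2000 nt worth 0.0205 and 0.0279 RPKM. In each pair of values the vehicle library comes first. A log2 ratio divides RPKM + 1 with the compound by RPKM + 1 with vehicle, which understates differences of low genes, and a gene was counted as higher or lower from 2-fold on that scale. Of 9840 protein-coding symbols at 1 RPKM or more in a library, 4.12% were higher by that rule and 9.5% lower, with a median log2 ratio of -0.10. Luminal prostate genes were present in both libraries: all 12 with a row of their own were at 1 RPKM or more. The row that joins KLK2 and KLK3, the gene of PSA, stood at 1528 and 1675 RPKM. Among basal genes KRT5 was listed at 0 in both libraries and TP63 stood at 0.345 and 0.846 RPKM. Fibroblast markers summed to 2.81 and 5.37 RPKM over the 6 of 7 with a row of their own, leukocyte markers to 0.9 and 0.511 over 6 of 7, endothelial markers to 0.180 and 0.291 over 5 of 5, and markers of brain neurons and glia to 28.4 and 18.6 over 10 of 10, of which MBP made up 27.0 and 17.3 RPKM. PECAM1, KDR, LUM and GAD2 among them were listed at 0 in both libraries.

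**Figure D1:**
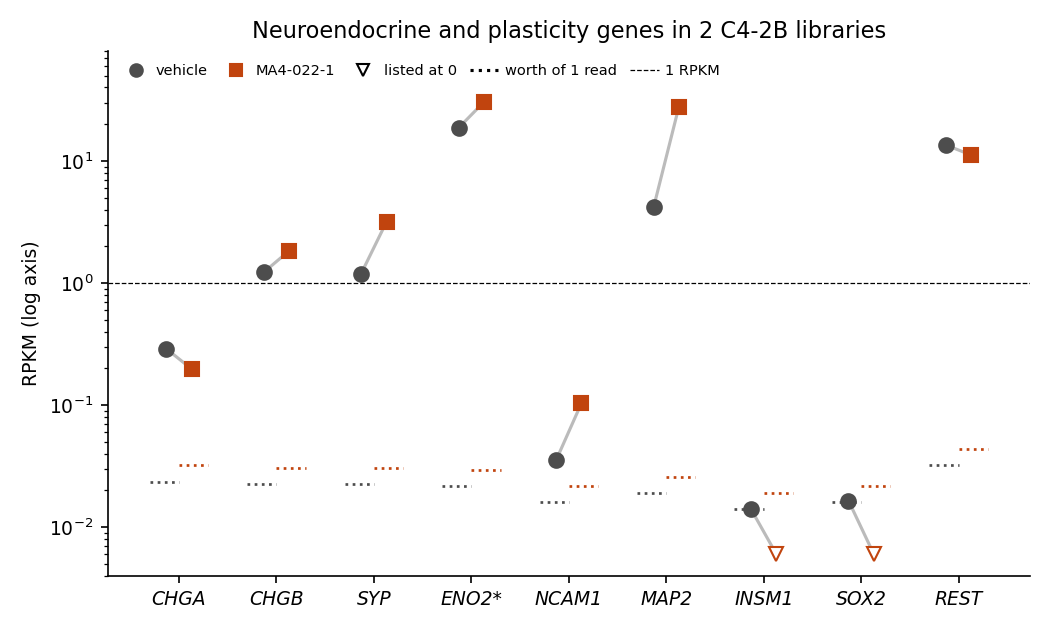
RPKM (log axis) of the 9 genes in the vehicle library (circles) and the MA4-022-1 library (squares), with the worth of 1 read as dotted lines, values listed at 0 as open triangles at the bottom, and 1 RPKM as a dashed line. MAP2 stands at 4.16 and 27.8 RPKM, while INSM1 and SOX2 lie at about 1 read in the vehicle library; the asterisk marks ENO2, read from a row joined with LRRC23.

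Of the 9 genes, 5 reached 1 RPKM in at least 1 library: MAP2, ENO2, REST, SYP and CHGB. MAP2 was the 1 gene at least 2-fold higher, where the background was 4.12% of expressed protein-coding genes and 7.93% of all 15539 expressed genes. None was at least 2-fold lower, where it was 9.5% and 9.65%. The median log2 ratio of the 5 was 0.68, which describes only the genes that the filter kept. It is the value of the row that joins ENO2 with LRRC23, and without that row the median of 4 members was 0.64. With so few genes these counts are a description of single genes, and each is given in turn.

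MAP2 stabilises microtubules in neuronal dendrites and is used as a marker of neuronal differentiation. It stood at 4.16 RPKM with vehicle and at 27.8 RPKM with the compound (hg19, chromosome 2, 210288767 to 210598842, a locus that also holds RNA5SP118, listed at 0). Its log2 ratio was 2.48, with a 95% counting interval from 2.31 to 2.66. In plain RPKM the ratio was 6.69, from 5.78 to 7.78, at an estimated 219 and 1075 reads on its median coding transcript of 2139 nt. Its 8 coding transcripts run from 614 to 9711 nt, and the interval of the ratio was 4.87 to 9.38 if all reads fell on the shortest and 6.27 to 7.15 on the longest. Only 14 of the 9840 expressed protein-coding symbols had a larger log2 ratio. The gene's value is 1 row over all its transcripts and starts, so a shift between them, which can move RPKM, was not tested.

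Of 18 microtubule and cytoskeletal genes of neurons, 17 had a row of their own, 6 reached 1 RPKM, and MAP2 was the 1 gene beyond 2-fold; the list's median log2 ratio was -0.36. STMN1, which destabilises microtubules in dividing cells, stood at 52.9 and 27.2 RPKM. MAP1B and MAP4, of the same broad class of microtubule proteins, were at 7.09 and 4.70 RPKM and at 24.0 and 18.4 RPKM. MAPT, which encodes tau, the axonal relative of MAP2, stood at 6.27 and 4.68 RPKM. STMN3, the other gene of the 6 above 0, stood at 0.771 and 1.15 RPKM and passed the filter through the MA4-022-1 library alone. Below 1 RPKM, MAP1A was higher with the compound, at 0.0293 and 0.116 RPKM on an estimated 8.1 and 23.7 reads, and the neurofilament NEFL lower, at 0.313 and 0.0517 RPKM on 25.5 and 3.1 reads. STMN2, STMN4, NEFM and GAP43, markers of neurons and growing axons, were listed at 0 in both libraries.

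**Figure D2:**
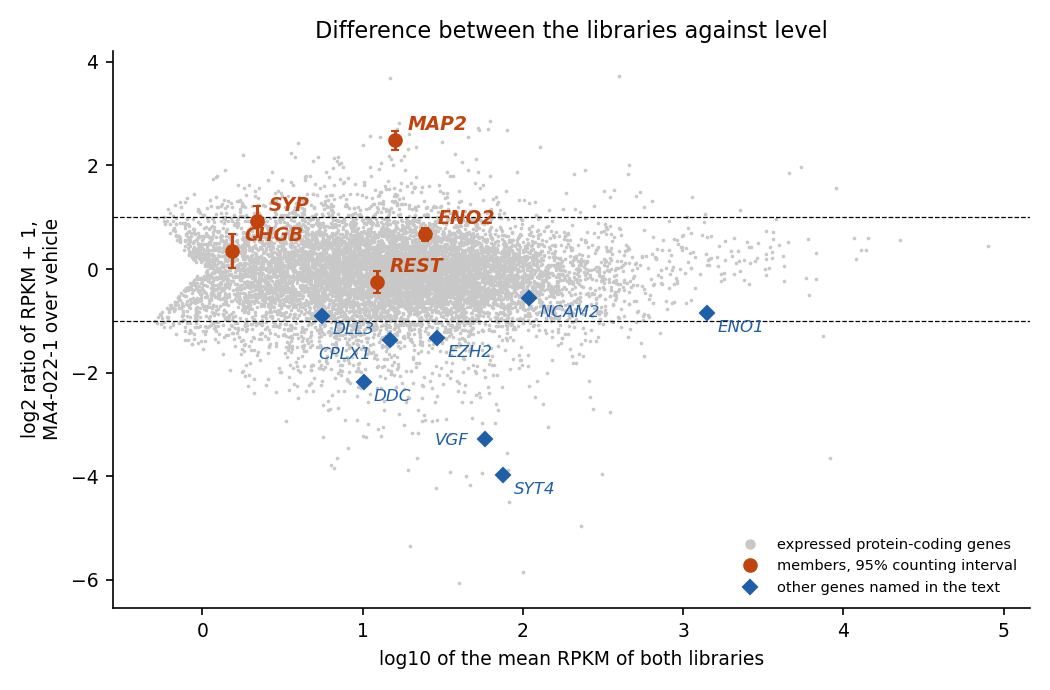
The log2 ratio of RPKM + 1 against the log10 mean RPKM for expressed protein-coding genes (grey), the 5 members at 1 RPKM or more (red, with 95% counting intervals) and other named genes (blue diamonds), with 2-fold lines dashed. MAP2 lies near the upper edge of the cloud at 2.48, and SYT4 and VGF lie below most of it at -3.98 and -3.27.

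Synaptophysin, a membrane protein of small vesicles and a routine stain for neuroendocrine tumours, stood at 1.20 RPKM with vehicle and 3.17 RPKM with MA4-022-1 (hg19, chromosome X, 49044269 to 49058913). Its log2 ratio was 0.93, with a counting interval from 0.61 to 1.22 that spans the 2-fold line. In plain RPKM the ratio was 2.65, from 1.89 to 3.76, at an estimated 53.5 and 104 reads. The gene was therefore on the near side of the threshold through the pseudocount: with 0.1 RPKM in place of 1 its log2 ratio was 1.34. SYP-AS1, the antisense gene in the same locus, stood at 0.216 and 0.442 RPKM, and the sources used here do not state whether strand was counted, so reads of the pair cannot be told apart.

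Of 26 synaptic vesicle and fusion genes, 25 had a row of their own and 11 reached 1 RPKM, 1 of them higher and 3 lower by that rule, with a median of -0.16. SYT4, a synaptotagmin, was 17.6-fold lower in plain RPKM, at 143 and 8.11 RPKM, a log2 ratio of -3.98 whose counting interval ran from -4.20 to -3.77. The complexin CPLX1, a clamp of the fusion machinery, stood at 21.7 and 7.77 RPKM. SYPL1, the relative of synaptophysin that most tissues express, was at 57.2 and 27.8 RPKM, so SYP and SYPL1 lay on opposite sides of 0. At a pseudocount of 5, or centred on the other reference sets, the counts were 0 to 2 higher and 2 lower.

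CHGA, or chromogranin A, the main serum marker of neuroendocrine tumours, was close to the detection limit, at 0.290 and 0.197 RPKM, which is an estimated 12.3 and 6.2 reads (hg19, chromosome 14, 93389425 to 93401638). The interval of its plain ratio, 0.214 to 1.93, included 1, that is, no difference. CHGB, or chromogranin B, stood at 1.22 and 1.84 RPKM, a log2 ratio of 0.35 from 0.02 to 0.68 (chromosome 20, 5892076 to 5906007), on 54.4 and 59.9 reads. Counting error alone leaves CHGB anywhere from level to 2.21 times as high with MA4-022-1.

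In the granin family, all 7 genes had a row and 3 reached 1 RPKM, with 1 of them 2-fold lower or more and none higher. That was VGF, the precursor of several neuropeptides, at 106 and 10.1 RPKM summed over its 2 rows, a log2 ratio of -3.27 (interval from -3.40 to -3.14). The 2 rows of VGF went apart, at 104.8 and 8.40 RPKM and at 1.37 and 1.71 RPKM. PCSK1N, a granin-like inhibitor of prohormone convertase, stood at 1.23 and 2.39 RPKM. In the vehicle library VGF was thus the most abundant granin, and CHGA one of the 4 below 1 RPKM. SCG2, SCG3 and SCG5, the others below it, stood at 0.465 and 0.338, at 0.0711 and 0.113, and at 0.832 and 0.599 RPKM.

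Of 14 genes that process prohormones or dock granules, 13 had a row of their own, 7 reached 1 RPKM, and 1 was at least 2-fold lower with none higher. It was DDC, the decarboxylase that makes dopamine and serotonin, at 17.3 and 3.04 RPKM. CADPS2 and RAB27A, which act in granule release, stood at 7.22 and 3.43 RPKM and at 31.1 and 17.2 RPKM. SLC18A2, the vesicular monoamine transporter, was at 9.47 and 12.7 RPKM over 3 rows. The convertases PCSK1 and PCSK2 were both under 0.2 RPKM in each library, at 0.109 and 0.173 and at 0.0777 and 0.0676.

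ENO2, neuron-specific enolase, had no row of its own. The row that joins it with its neighbour LRRC23 stood at 18.7 RPKM with vehicle and 30.5 RPKM with MA4-022-1, a log2 ratio of 0.68 from 0.55 to 0.80 (hg19, chromosome 12, 6976283 to 7032861), and the share of the 2 genes in it cannot be told apart. SPSB2 and TPI1, other rows of the locus, stood at 2.73 and 5.81 RPKM and at 809 and 662 RPKM. The other enolases went the other way within 2-fold: ENO1, the glycolytic isozyme of most tissues, at 1818 and 1004 RPKM, and ENO3, the muscle isozyme, at 81.0 and 51.8 RPKM. Reads of ENO1 can be split with its pseudogene copies.

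NCAM1, the adhesion molecule CD56, stood at 0.0353 and 0.104 RPKM, an estimated 2.2 and 4.8 reads, and its plain ratio of 2.93 had an interval from 0.489 to 27.0 (hg19, chromosome 11, 112830002 to 113149158). No difference was detectable at this depth. Its paralog NCAM2 was abundant, at 131 and 88.4 RPKM, a log2 ratio of -0.56 with an interval from -0.60 to -0.53. Of 12 neural adhesion genes, 10 had a row of their own and 3 reached 1 RPKM, all within 2-fold. Besides NCAM2 these were ALCAM, at 58.9 and 66.5 RPKM, and CADM1, at 7.96 and 14.5 RPKM. In both libraries NCAM2 was thus the most abundant of these 3, and NCAM1 was among the 7 below 1 RPKM.

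INSM1, a zinc finger factor that drives neuroendocrine differentiation, was at 0.0140 RPKM with vehicle, an estimated 1.0 read, and listed at 0 with MA4-022-1 (hg19, chromosome 20, 20348765 to 20351590). With 3 reads as the limit that a count of 0 allows, a level of up to 0.0573 RPKM could have gone unseen. SOX2, a pluripotency factor of the lineage switch, was alike at 0.0165 RPKM, again an estimated 1.0 read, and listed at 0, which allows up to 0.0652 RPKM. Its locus is 1 interval from 180701497 to 181554668 on chromosome 3 of hg19 that also holds DNAJC19, at 56.4 and 47.1 RPKM, and SOX2-OT, whose row, joined with AC117415.1, stood at 0.357 and 0.619 RPKM. Neither gene gave a value from which a difference could be read.

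Of 23 neuroendocrine and neuronal transcription factors in the list, 21 had a row of their own, 4 reached 1 RPKM, and 1 was at least 2-fold lower. POU3F2, a neural factor, stood at 0.0475 RPKM and was listed at 0 with MA4-022-1, and FOXA2 was listed at 0 in both libraries. NEUROD1 and NKX2-1 had only joined rows, with CERKL at 0.382 and 0.204 RPKM and with SFTA3 at 0.110 and 0.0751 RPKM. The lower gene was ASCL2, a stem cell factor, at 1.72 and 0.0608 RPKM, on an estimated 77 and 2.0 reads, and it came within 2-fold at a pseudocount of 5. ASCL2 passed the filter through the vehicle library alone, so the filter fixed its direction. HES6, a Notch antagonist, stood at 21.4 and 23.6 RPKM, LHX2 at 1.36 and 0.946 RPKM, and ONECUT2, a plasticity factor of castration-resistant tumours, at 1.09 and 1.06 RPKM.

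REST, the repressor of the programme, was at 13.5 RPKM with vehicle and 11.2 RPKM with MA4-022-1 (hg19, chromosome 4, 57774075 to 57802010). Its log2 ratio was -0.25 with an interval from -0.47 to -0.04, a plain ratio of 0.827, and it lay near the middle of all genes, with 5903 symbols at a larger ratio and 3937 at a smaller one. SRRM4, the splicing factor that turns REST into an inactive form in neuroendocrine tumours, was listed at 0 with vehicle and stood at 0.0425 RPKM with MA4-022-1. That value rested on an estimated 7.0 reads. SRRM3, listed with it among regulators of REST, was lower with the compound, at 0.889 and 0.438 RPKM on 72.5 and 26.2 reads. Splice forms of REST are not separate in these tables.

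Of 22 corepressors and regulators of REST, all had a row, 19 reached 1 RPKM, and all 19 lay within 2-fold, with a median of 0.14; 4.12% and 9.5% of expressed protein-coding genes lay beyond it. Larger differences among them were those of KDM1A, the histone demethylase of the complex, at 35.3 and 19.3 RPKM, CTDSP1, a phosphatase that stabilises REST, at 10.01 and 5.87 RPKM, and HDAC2, a histone deacetylase, at 109 and 69.0 RPKM. None of these counts changed at the other pseudocounts or reference sets.

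Of 30 genes known to be repressed by REST, 28 had a row of their own and 9 reached 1 RPKM, with 3 of them lower and none higher. The background was 9.5% of expressed protein-coding genes lower and 4.12% higher. The 3 were SYT4, VGF and CPLX1, given above, and they were also the 3 highest in the vehicle library. STMN3, CELSR3 and UNC13A reached 1 RPKM with MA4-022-1 alone, so the filter fixed their direction and the median over the 9 is not read. CELSR3, a cadherin of neurons, stood at 0.440 and 1.13 RPKM, UNC13A, which primes synaptic vesicles, at 0.616 and 1.17 RPKM, and BEX1 at 1.11 and 1.14 RPKM. At a pseudocount of 0.1, 2 of the 9 were at least 2-fold higher and the same number as before lower. Below 1 RPKM, SNAP25 stood at 0.158 and 0.734 RPKM on an estimated 7.9 and 27.0 reads, and BDNF at 0.0442 and 0.241 RPKM on 4.6 and 18.3 reads. KCNH2 went the other way, at 0.920 and 0.330 RPKM on 76.6 and 20.2 reads. STMN2, DRD2, NEFM and HTR1A were listed at 0 in both libraries.

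**Figure D3:**
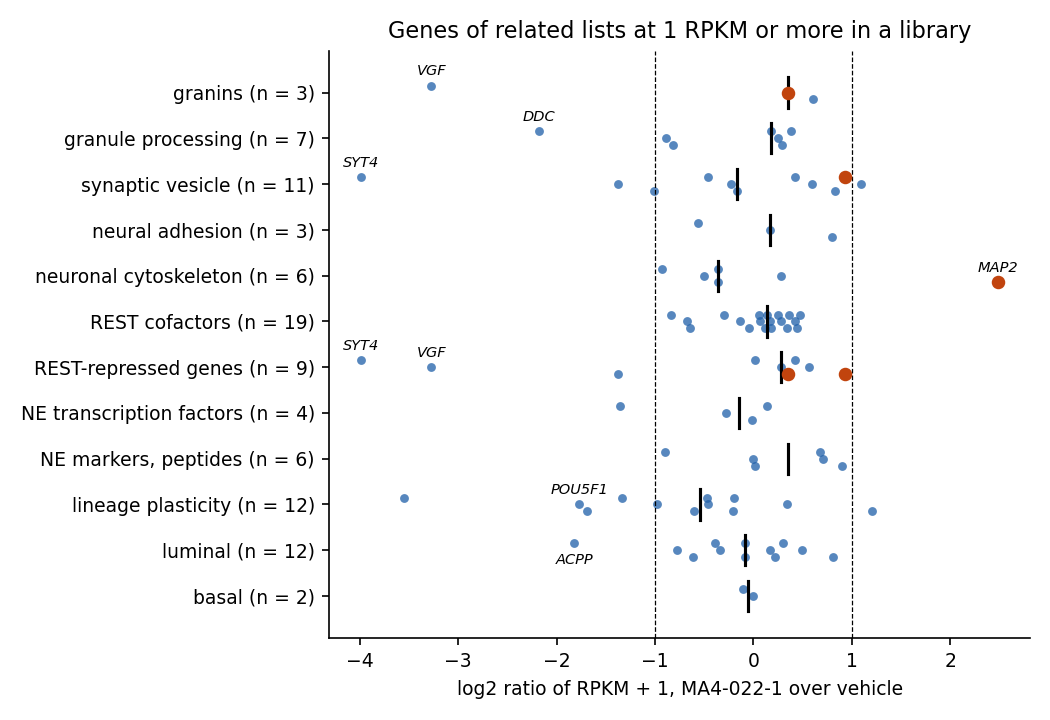
Log2 ratio of RPKM + 1 for genes at 1 RPKM or more in a library, by list, with members in red, other genes in blue, medians as black bars and 2-fold lines dashed. All 19 REST cofactors lie between the lines, while VGF, DDC and SYT4 lie far to the left and MAP2 alone far to the right.

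Among 20 other neuroendocrine markers and peptides, 17 had a row of their own, 6 reached 1 RPKM and all 6 lay within 2-fold, with a median of 0.35. DLL3, a Notch ligand on neuroendocrine tumour cells, stood at 7.57 and 3.60 RPKM, a plain ratio of 0.476 from 0.388 to 0.581. CRMP1, a cytoskeletal regulator of neurons, had the largest log2 ratio of the 6, 0.90, at 0.527 and 1.85 RPKM, a plain ratio of 3.51 from 2.40 to 5.22, and it passed the filter through MA4-022-1 alone. At a pseudocount of 0.1 RPKM DLL3 was lower and CRMP1 higher by 2-fold or more, and CRMP1 also when centred on the housekeeping list. CALCA and CALCB, the calcitonin peptide genes, were at 9.69 and 16.1 RPKM and at 4.94 and 8.68 RPKM, each over 2 rows. BEX2 stood at 113 and 112 RPKM. GRP, SST and PCP4 were listed at 0 in both libraries.

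Of 24 lineage plasticity and pluripotency genes, 23 had a row of their own, 12 reached 1 RPKM, 1 was higher and 4 were lower by that rule, with a median of -0.54. RB1, which is often lost in neuroendocrine tumours, stood at 14.6 and 9.24 RPKM. EZH2, the methyltransferase of Polycomb, was at 42 and 16.0 RPKM, and the mitotic kinase AURKA at 23.6 and 6.61 RPKM. POU5F1, summed over 7 rows of near-identical copies and therefore uncertain, stood at 8.80 and 1.88 RPKM. The higher gene was PEG10, a retrotransposon-derived gene active in neuroendocrine prostate cancer, at 0.835 and 3.24 RPKM. It passed the filter only through the library with the compound, so the filter fixed its direction. At a pseudocount of 5 PEG10 came within 2-fold. MYCN was listed at 0 in both libraries.

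Luminal, basal and mesenchymal genes were read for the identity that such a shift would replace. Of the 12 luminal genes, 1 was at least 2-fold lower and none higher: ACPP, prostatic acid phosphatase, at 13.4 and 3.07 RPKM. SLC45A3, a luminal transporter, stood at 13.2 and 24.0 RPKM, HOXB13 at 54.8 and 31.7 RPKM and KRT18 at 113 and 73.6 RPKM. The 2 basal genes at 1 RPKM or more, ITGA6 and DST, were at 12.8 and 11.8 RPKM and at 6.54 and 6.52 RPKM. Of 9 mesenchymal genes, 3 reached 1 RPKM and all lay within 2-fold. They were FN1, at 38.8 and 22.6 RPKM, VIM, at 2.96 and 2.60 RPKM, and ZEB1, at 1.09 and 0.866 RPKM. Among fibroblast genes COL1A1 stood at 1.19 and 5.03 RPKM and COL1A2 at 0.00707 and 0.0183 RPKM. Others of that list had lower values with the compound: PDGFRB stood at 0.858 RPKM and was listed at 0, DCN was at 0.713 and 0.319 RPKM, and COL3A1 was at 0.0398 RPKM and listed at 0. On median transcript lengths, the counting interval of the plain ratio included 1 for DCN (0.0928 to 1.60), COL3A1 (0 to 2.09) and COL1A2 (0.105 to 213). The part of these genes in any result was not tested.

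The genes around MAP2 and SYP were then read, a step chosen after their values were seen. Within 1 Mb of MAP2, 6 other protein-coding genes reached 1 RPKM, with log2 ratios from -0.70 to 1.09 and a median of 0.04. The nearest, UNC80, stood at 3.41 and 3.54 RPKM, and KANSL1L was the 1 neighbour at least 2-fold higher, at 20.2 and 44.3 RPKM. Around SYP 26 neighbours reached 1 RPKM, with a median of -0.26, 4 of them lower by 2-fold or more and none higher. The background was 9.5% of expressed protein-coding genes lower and 4.12% higher. Among the 4, SUV39H1, at 2.48 and 0.433 RPKM, passed the filter through the vehicle library alone, so the filter fixed its direction. Their range, from -1.34 to 0.86, ended below the 0.93 of SYP.

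**Figure D4:**
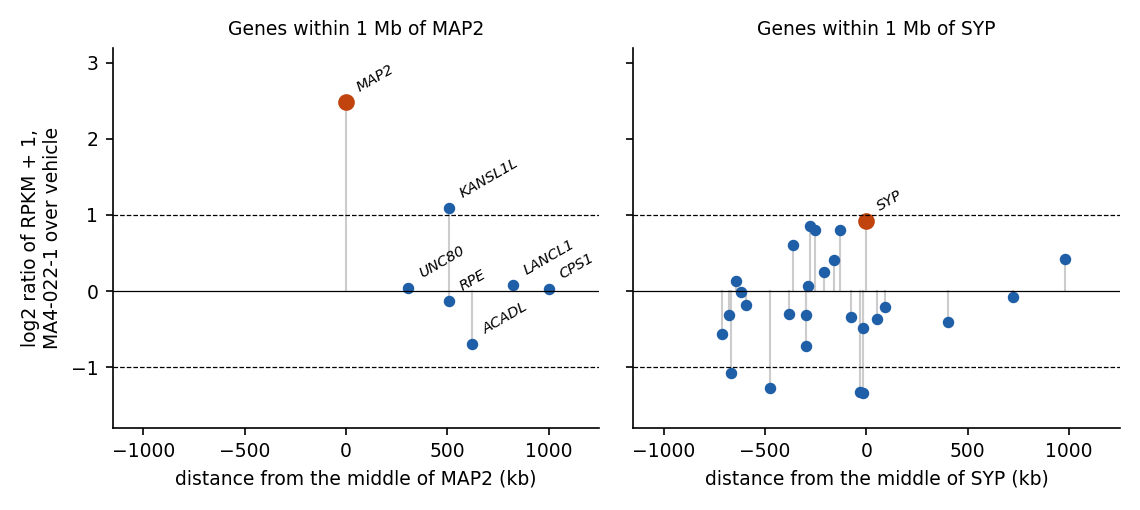
Log2 ratio of RPKM + 1 of protein-coding genes at 1 RPKM or more within 1 Mb, against the distance in kb of each gene's middle from that of MAP2 (left) or SYP (right), with 2-fold lines dashed and the member in red. On this scale MAP2 at 2.48 stands above all 6 neighbours, of which the highest is KANSL1L at 1.09, and SYP at 0.93 above all 26 of its own. In plain RPKM the ratio of CCDC120 was larger than that of SYP.

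How far the scale sets these differences was checked for the 5 members at 1 RPKM or more. MAP2 stayed beyond 2-fold under every pseudocount and reference set tried, from 1.84 to 2.71. SYP crossed the 2-fold line under 3 of them, the pseudocount of 0.1, the protein-coding median and the housekeeping list, and lay within it under the others. REST stayed below 0, from -0.27 to -0.14, and ENO2 and CHGB above 0.

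**Figure D5:**
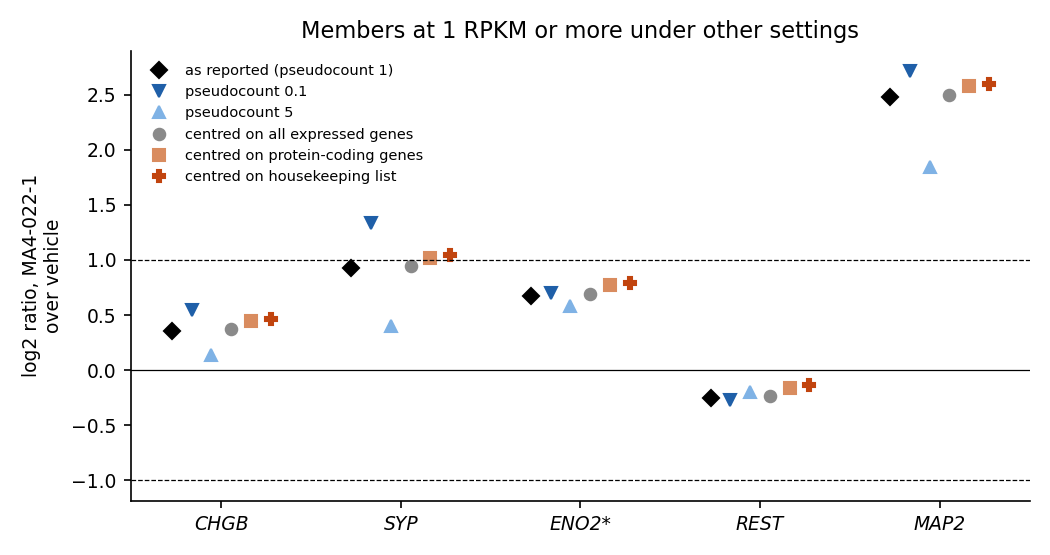
Log2 ratio, MA4-022-1 over vehicle, of the 5 members at 1 RPKM or more as reported and with other pseudocounts (in RPKM) or with ratios centred on other gene sets; dashed lines mark 2-fold. MAP2 lies between 1.84 and 2.71 throughout, while SYP ranges from 0.40 to 1.34 and crosses the line; the asterisk marks the joined row of ENO2.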

How the data were processed

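Total RNA of 2 C4-2B libraries, 1 per group, was depleted of ribosomal RNA, made into ScriptSeq libraries and read as single 50 bp reads, per the labels' protocols. The submitters' processing notes name TopHat2 2.0.13, Cufflinks 2.2.1 and hg19. The authors deposited 1 table of RPKM per gene and library, per the file headers, so no count test was run. Members and gene lists were chosen with earlier results of these data known.

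Each table held 62271 rows. Rows without a symbol, 2751 in number, were left out and carried 29.6% of all RPKM with vehicle and 23.3% with MA4-022-1. Rows of one symbol were summed. A joined row entered the sum of a member, which concerned ENO2, whereas list genes found only in joined rows got no value of their own. Short RNAs were left out of the background. Deposited starts count from 0 and are printed 1-based.

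The measure was log2 of RPKM + 1, MA4-022-1 over vehicle, for genes at 1 RPKM or more in a library, with a threshold of 2-fold. Reads were estimated from RPKM steps of processed pseudogenes, where 87.6% of 241 values and 87.0% of 185 values lay within 2% of a whole read, and from median coding transcript lengths of GENCODE release 29, used for lengths, types and the exons of GRCh38 alone. Intervals are Clopper-Pearson at 95% on those estimated reads, without PCR duplicates or spread between cultures. Named genes were all members, a set of defining markers, and per list up to 4 with the largest ratio at 5 RPKM or more, then 1 RPKM or more, with others chosen after their values were seen: SCG2, SCG3, SCG5, PCSK1, PCSK2, UNC13A, BEX1, PEG10, STMN3, MAP1A, NEFL, CRMP1, COL1A2, PDGFRB, DCN, COL3A1, SYN1, GRIA2, genes sharing a locus or neighbourhood with a named gene, and most genes listed at 0 in both libraries. SRRM3, SNAP25, BDNF and KCNH2 were also named after their values were seen. Counts and medians of a list cover the genes that the filter kept, some through 1 library alone. Some genes of the lists entered the counts and are not reported here by name. Alternatives were other pseudocounts, reference sets, filters, row rules and a 1.5-fold threshold. The protein-coding reference set was added after seeing the data. The log2 ratio and its 2-fold rule were tried on simulated data with counting error alone, where the changed genes had a mean of 5 RPKM or more. The filter and the summing of rows were not part of that test. The scripts ran under Python 3.11.15 with scipy 1.17.1, pandas 2.3.3, numpy 2.4.6 and matplotlib 3.10.9.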

Additional observations from a re-analysis of the deposited data

How the results depend on the processing

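The count of 1 member at least 2-fold higher became 2, MAP2 and SYP, under 3 settings. These were a pseudocount of 0.1 RPKM and ratios centred on the housekeeping list or on protein-coding genes. In that order, 6.72%, 5.95% and 5.53% of expressed protein-coding genes were higher. At a threshold of 1.5-fold the count was 3, with the row that joins ENO2 with LRRC23 added. The share of all expressed genes beyond 1.5-fold was not computed. The count of members at least 2-fold lower was 0 under all 10 alternatives. The median log2 ratio of 0.68 over the 5 members kept was 0.40 at a pseudocount of 5 RPKM and 0.092 over all 9 without the filter on low values. Centring on the housekeeping list, which moved ratios by 0.12, changed the share of higher genes among protein-coding genes beyond 2-fold from 30.2% to 44.8%, and centring on their own median to 41.7%. At a pseudocount of 0.1, 661 protein-coding genes were at least 2-fold higher and 1235 lower, and at one of 5, 169 and 459, against 405 and 935. The signs of CHGA, INSM1 and SOX2, all below 1 RPKM, depended on the scale. Depth limits CHGA, NCAM1, INSM1 and SOX2, at about 12 reads or fewer per library. No paired analysis was possible because each group held 1 library.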
